A study of Mus musculus with 24 samples.

Results

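This account follows 47 genes of the cell cycle and mitosis, of 18193 genes measured, in the somatosensory and the visual relay nucleus of the newborn mouse thalamus. The genes were taken by their annotated symbol, and each gene was read through its brightest probe set (the set of short array oligonucleotides that reads 1 transcript), judged by the mean over the 24 arrays. RNA came from the ventrobasal nucleus (VB, which relays touch) and the dorsal lateral geniculate nucleus (dLGN, which relays vision), and the study asked what losing the eyes before birth does to gene expression there. All animals were wild type mice on a C57BL/6 background, so that controls and treated animals carried no transgene. Treated animals, called embBE, had both eyes removed in the womb, and the controls kept theirs. In VB there were 3 control and 3 embBE arrays on the day of birth (postnatal day 0, P0) and 3 and 3 at P4. In dLGN there were 2 control and 4 embBE arrays at P0 and 3 and 3 at P4. Each array is named below by the pair of numbers in its label (35_1, for example). The labels do not say that arrays came from separate animals or whether animals were pooled, so every p-value measures the spread between these samples only, which may be technical.

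A dividing cell copies its DNA and then parts the copies between its daughters, and the genes of both steps are read out in turn. Cyclins and their kinases drive the cell forward, licensing factors and polymerase clamps copy the DNA, and kinetochores, spindle motors and the cytokinetic ring then separate the chromosomes and the cell. By birth the relay neurons of the thalamus have left the cycle, and the cells known to divide in the neonatal thalamus are mainly glial precursors, young astrocytes, vessel cells and microglia. The values are from whole dissected tissue, in which fewer cells of a type and less RNA per cell cannot be told apart. They are log2 signals, on which a difference of 1 is a 2-fold difference in signal. A level is never compared between genes here, since each probe set has its own brightness.

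The dissections carried the defining markers of thalamic relay neurons. Slc17a6, the vesicular glutamate transporter of these cells, had group means of 11.87 to 13.10 over the 8 groups, Tcf7l2 of 12.07 to 12.54 and Lef1 of 9.75 to 10.19. The arrays were not equal in quality. Array RNA is copied from its 3' end, and a message that has lost length reads dimmer at its 5' end. The actin gap, the log2 signal of actin's 3' probe set minus that of its 5' one, was 2.25 to 2.55 in VB and 3.06 to 4.27 in dLGN in the embBE animals at P0, without overlap. At P4 it was 1.98 to 2.06 in VB and 3.34 to 3.94 in dLGN in the embBE animals. In the P0 controls it overlapped between nuclei (2.19 to 4.29 in VB, 3.26 to 4.05 in dLGN), and VB control array 35_1 held the highest VB value. The nuclei of embBE animals therefore differed in this measure wherever they are compared below, and results are given with and without it in the fit.

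The 47 genes were read by 114 probe sets in all, 13 of them by 1 probe set and 34 by several. The brightness rule still chose 7 probe sets dimmer than the median of all probe sets, those of Cdc6, Tyms, Bub1, Aurkb, Birc5, Kif20a and Anln. The spread of the 8 group means ran from 0.22 for Mcm2, a subunit of the replicative helicase, to 1.32 for Pcna, the sliding clamp of the DNA polymerases. Ube2c spanned 1.26, Ccne2 1.24, Nusap1 1.23, Ccnb2 1.21, Cdk1 1.17, Racgap1 1.08 and Cenpa 1.03. Of the 47 genes, 20 had their lowest group mean in the dLGN of embBE mice at P0, and 17 had their highest in the VB of embBE mice at P4. The VB controls at P0 held the lowest mean of 8 genes, and no other group held more than 7.

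**Figure D1:**
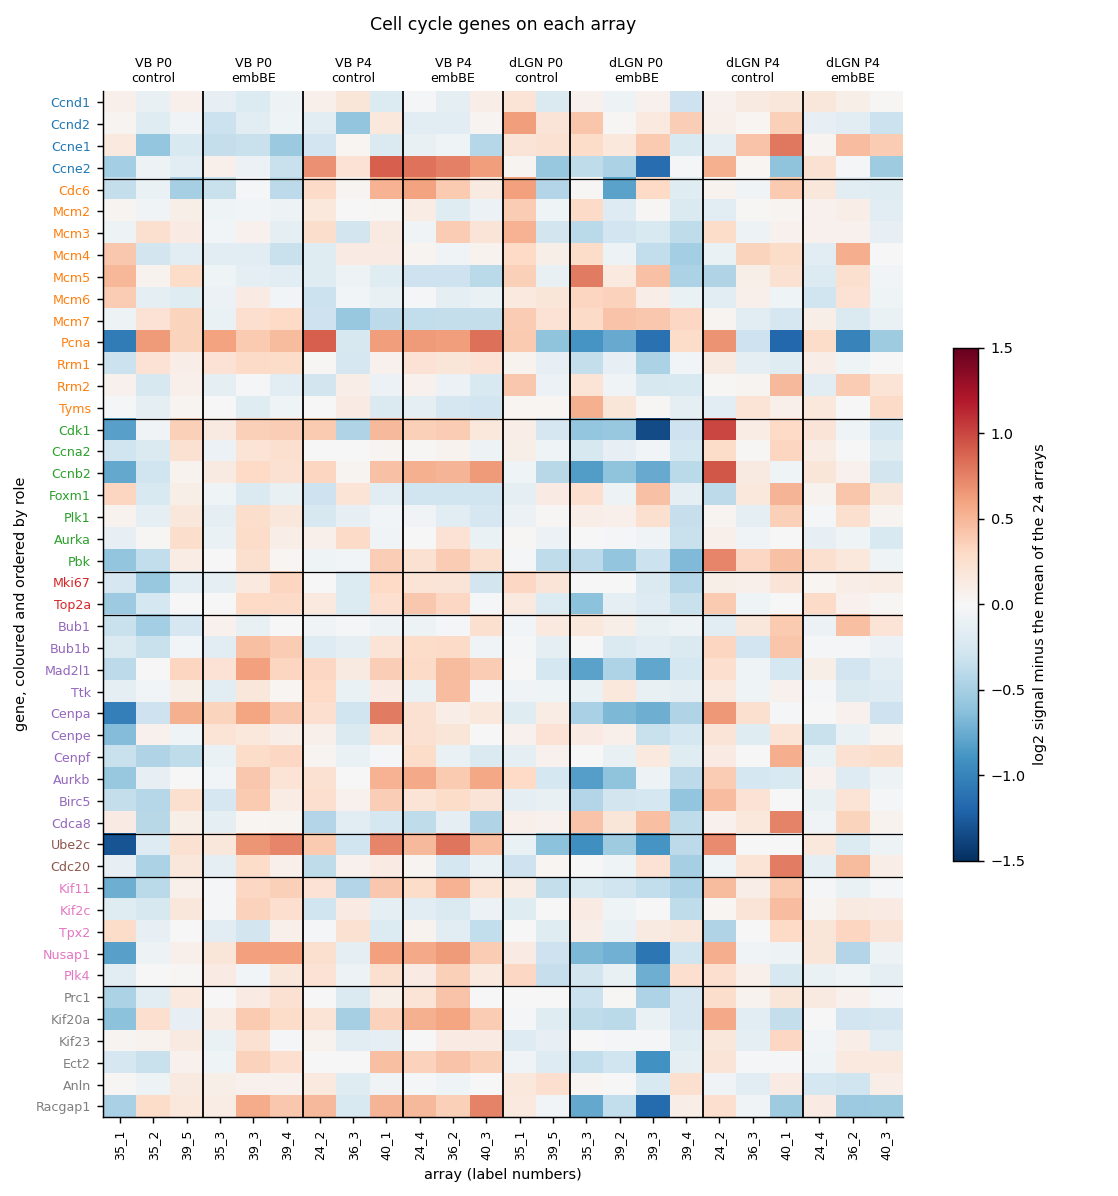
Signal of the 47 genes (vertical, grouped by role) on the 24 arrays (horizontal, by nucleus, day and treatment). Colour gives the log2 difference from each gene's mean over the 24 arrays. The dLGN embBE arrays at P0 hold the lowest group mean of 20 genes, and the VB embBE arrays at P4 the highest of 17.

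Promoter sequences are shown for 5 of the genes because mitotic genes and replication genes are known to be switched on by different short elements. Any link between these letters and the values that follow was not tested. Mitotic genes often carry a cell cycle homology region (CHR), bound by complexes that contain MuvB, beside CCAAT boxes bound by NF-Y, and replication genes often carry sites for E2F factors. The letters searched were TTTGAA or else TTCGAA for the CHR, and CCAAT for the box of that name. E2F letters were TTGGCGC and, with other central bases, TTCCCGC as well as TTCGCGC as well as TTGCCGC. They were searched on both strands of the 250 bases before each start in the RefSeq promoters of build GRCm38.p6, and the E2F letters can overlap one another. Capitals mark the matches, and a match on the opposite strand reads as its reverse complement, such as TTCAAA for the CHR and ATTGG for the box. The 5 were picked by hand to show these letters. The stretches of Ube2c, Cdk1, Kif11 and Cdc20 hold CHR and CCAAT letters, and the stretch of Mcm6 holds E2F and CCAAT letters. Cdk1 also has E2F letters 178 and 130 bases before its start, outside the stretch printed.
Ube2c, chr2:164769829-164769928, plus strand: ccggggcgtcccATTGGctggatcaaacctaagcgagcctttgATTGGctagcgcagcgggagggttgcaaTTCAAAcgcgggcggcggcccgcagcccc
Cdk1, chr10:69352913-69353012, minus strand: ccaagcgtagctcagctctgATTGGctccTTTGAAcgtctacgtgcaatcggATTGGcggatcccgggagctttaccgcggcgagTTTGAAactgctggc
Kif11, chr19:37376282-37376381, plus strand: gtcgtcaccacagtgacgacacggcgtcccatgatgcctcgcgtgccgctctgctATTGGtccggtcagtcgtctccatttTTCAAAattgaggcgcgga
Cdc20, chr4:118437344-118437443, minus strand: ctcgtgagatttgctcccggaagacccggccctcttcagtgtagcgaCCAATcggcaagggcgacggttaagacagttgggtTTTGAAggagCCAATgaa
Mcm6, chr1:128359706-128359825, minus strand: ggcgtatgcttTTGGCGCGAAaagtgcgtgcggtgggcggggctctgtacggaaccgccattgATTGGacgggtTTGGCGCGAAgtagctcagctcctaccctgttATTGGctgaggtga

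A promoter was listed for 37 of the 47 genes. A gene was counted if any of its listed promoters held the letters, and the share is set against that of all 27025 genes of the table, counted the same way. CHR letters stood in 13 of the 37 genes (35.1%, against 19.6%), CCAAT in 28 (75.7%, against 37.5%), E2F letters in 10 (27.0%, against 9.01%) and CHR together with CCAAT in 12 (32.4%, against 7.0%). Of all 32851 promoters taken singly, 17.1% held CHR letters, 33.8% CCAAT, 7.89% E2F letters and 6.02% CHR together with CCAAT. The genes with CHR letters were Bub1b, Ccnb2, Cdc20, Cdk1, Ect2, Kif11, Kif2c, Mcm2, Mcm7, Mki67, Prc1, Top2a and Ube2c. The genes with E2F letters were Cdc6, Cdk1, Ect2, Mcm5, Mcm6, Mcm7, Mki67, Plk4, Rrm1 and Rrm2. Both lists hold mitotic as well as replication genes. Nusap1 and Mad2l1 had listed promoters without any of these letters. A match describes the letters only and is not a measured site, and a gene without one lacks these letters in this window.

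The clearest contrast was between the nuclei of embBE mice at P0. There 11 of the 47 genes were higher in VB than in dLGN at an adjusted p under 0.05 and none was lower, where 3.55% of all genes were higher and 3.93% lower. The median difference over the 47 genes was 0.27, against -0.06 over all genes, and 32 of the 47 lay above 0. In 17 of the 47 genes every VB array lay above every dLGN array (13.1% of all genes did), and only Ccnd2 and Ccne1 had every VB array below (12.8% of all genes). The values of these genes are given for the 3 VB arrays in the order 35_3, 39_3, 39_4 and for the 4 dLGN arrays in the order 35_3, 39_2, 39_3, 39_4.

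Of the 10 kinetochore, passenger complex and checkpoint genes 3 passed, and of the 5 spindle genes 1. Others of the same roles lay near or below 0, among them Tpx2 (-0.19), Cdca8 (-0.19), Bub1 (-0.03) and Ttk (0.06). Nusap1, which bundles spindle microtubules, read 7.88, 8.31 and 8.31 in VB and 7.02, 6.97, 6.61 and 7.40 in dLGN. The lowest VB array lay well above the highest dLGN array, and the difference was 1.17 ± 0.23 (SE, n = 3 and 4, limma adjusted p = 0.00474). Mad2l1, the checkpoint protein that holds anaphase until chromosomes are attached, read 7.28, 7.68 and 7.39 in VB and 6.26, 6.61, 6.29 and 6.80 in dLGN. Its difference of 0.96 ± 0.17 had the lowest adjusted p of the 47 genes (limma, 0.00189), and the arrays again did not overlap. Cenpa, the histone that marks the centromere, read 7.76, 8.02 and 7.83 in VB and 6.94, 6.75, 6.69 and 6.98 in dLGN, a difference of 1.03 ± 0.26 (adjusted p = 0.0230). Aurkb, the kinase of the chromosomal passenger complex, read 5.72, 6.16 and 5.97 in VB and 4.93, 5.16, 5.69 and 5.37 in dLGN. Its VB and dLGN arrays nearly met, at 5.72 and 5.69, and its difference was 0.66 ± 0.20 (adjusted p = 0.0478). Nusap1 and Mad2l1 stayed past the threshold whichever of the 7 arrays was left out, whereas Aurkb did so in 2 of 7 cases and Cenpa in 2 of 7.

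Of the 7 mitotic entry genes 3 passed (Cdk1, Ccnb2 and Pbk), and Foxm1 (-0.25), Plk1 (0.08), Aurka (0.19) and Ccna2 (0.29) did not. Of the partners of the anaphase-promoting complex, Ube2c passed and Cdc20 (0.16) did not. Ube2c, the ubiquitin carrier of the anaphase-promoting complex whose CHR stretch is printed above, read 6.55, 7.04 and 7.11 in VB and 5.46, 5.85, 5.50 and 5.99 in dLGN. That difference of 1.20 ± 0.29 (adjusted p = 0.0172) was the widest of the 11. Cdk1, the kinase that starts mitosis, read 7.35, 7.57 and 7.59 in VB and 6.64, 6.65, 5.87 and 6.91 in dLGN (0.98 ± 0.28, adjusted p = 0.0372). Array 39_3 of dLGN was the low one, and Cdk1 stayed past the threshold in 1 of 7 cases when an array was left out. Ccnb2, a B-type cyclin that partners Cdk1, read 6.44, 6.60 and 6.53 in VB and 5.46, 5.70, 5.54 and 5.89 in dLGN (0.87 ± 0.20, adjusted p = 0.0134). Pbk, a kinase active in mitotic cells, read 9.42, 9.66 and 9.45 in VB and 9.02, 8.82, 9.09 and 8.76 in dLGN (0.59 ± 0.16, adjusted p = 0.0290). Neither gene had overlapping arrays.

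Both called genes of cytokinesis act at the cleavage furrow, where the cell pinches in. Ect2, which is needed to form the furrow, read 6.64, 7.06 and 6.96 in VB and 6.34, 6.41, 5.80 and 6.58 in dLGN (0.60 ± 0.16, adjusted p = 0.0270). Racgap1, the partner that recruits Ect2, read 6.62, 7.07 and 6.91 in VB and 5.74, 6.14, 5.35 and 6.61 in dLGN (0.90 ± 0.27, adjusted p = 0.0467). In both genes dLGN array 39_4 came close to the lowest VB array. All 6 cytokinesis genes lay above 0, with a median of 0.46.

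Replication genes and G1 cyclins had medians below 0. Rrm1, the large subunit of ribonucleotide reductase, was the only called gene of the 11 of replication and nucleotide supply. It read 9.34, 9.41 and 9.39 in VB and 8.76, 9.0, 8.64 and 9.08 in dLGN (0.51 ± 0.13, adjusted p = 0.0217). Pcna read 10.01, 9.80 and 9.88 in VB and 8.52, 8.65, 8.29 and 9.68 in dLGN, so that a difference of 1.11 had an error of 0.44 and an adjusted p of 0.109. Of the 11 replication genes 8 lay below 0, and their median was -0.05. The 4 G1 cyclins had a median of -0.24, and Ccnd2 and Ccne1, which carry cells through G1 and into S phase, were on the chosen probe sets the pair with every VB array below every dLGN array (-0.41 ± 0.15 and -0.56 ± 0.20, adjusted p = 0.0914 and 0.0762).

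**Figure D2:**
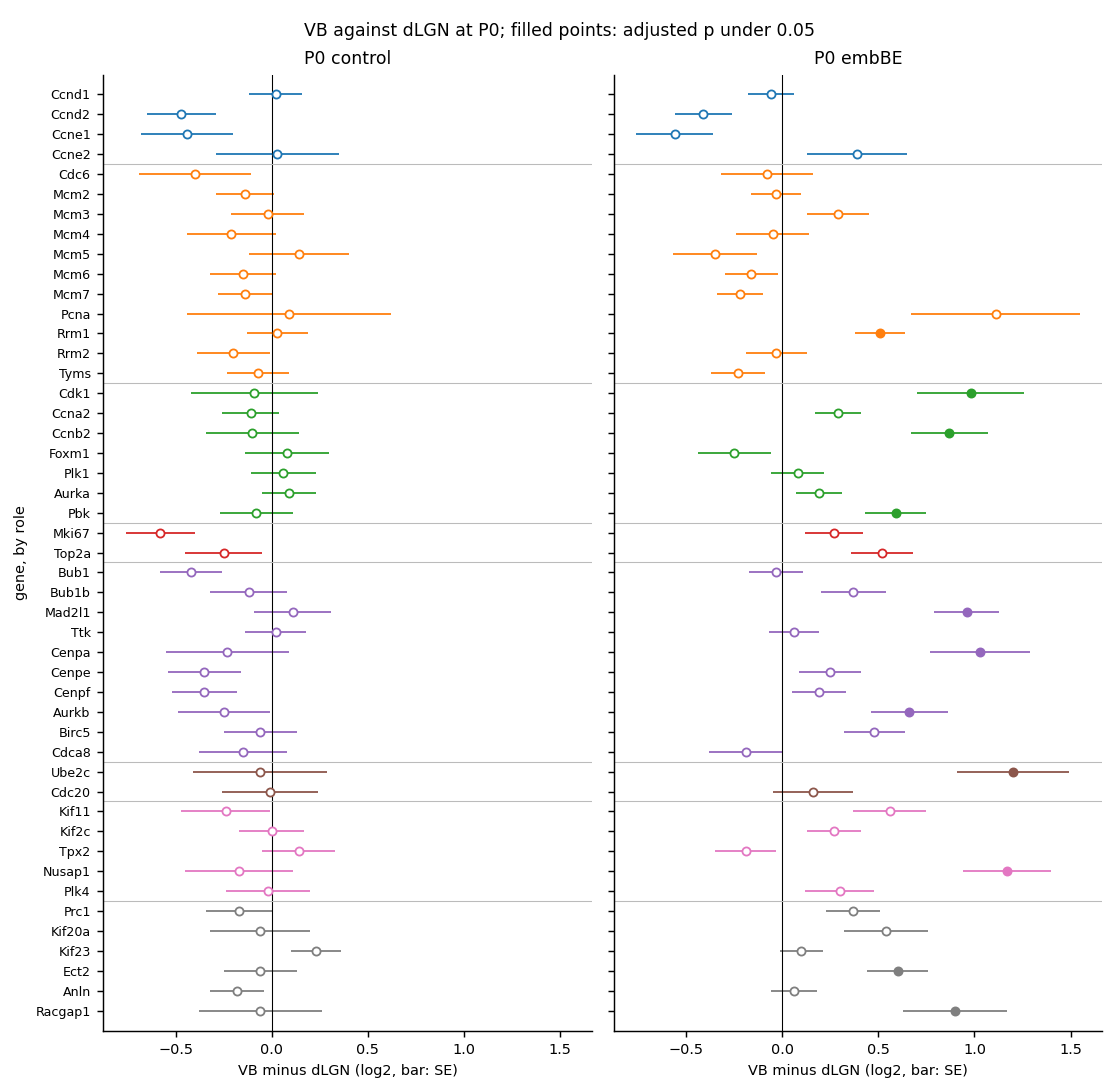
Difference in log2 signal between VB and dLGN at P0 (horizontal) for the 47 genes (vertical, by role), in control and in embBE mice, with bars of 1 SE; filled points have an adjusted p under 0.05. The 11 filled embBE points all lie to the right of 0, and no control point is filled.

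In the control mice at P0 none of the 47 genes passed the adjusted threshold in either direction with limma (0.555% of all genes were higher in VB and 1.01% lower), and 3 had an unadjusted p under 0.05, as 9.1% of all genes did, all 3 lower in VB. These were Mki67, the proliferation antigen that coats mitotic chromosomes (-0.58 ± 0.18), Ccnd2 (-0.47 ± 0.18) and Bub1, a checkpoint kinase (-0.42 ± 0.16). The median over the 47 genes was -0.09. For the genes called in embBE mice the control differences were -0.17 ± 0.28 for Nusap1, 0.11 ± 0.20 for Mad2l1, -0.06 ± 0.35 for Ube2c and -0.09 ± 0.33 for Cdk1. These errors are larger than in embBE mice, since only 2 dLGN control arrays were at hand.

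Other measures moved together with the nuclei of embBE mice at P0. With the actin gap of each array in the fit, the number of the 47 genes past the adjusted threshold went from 11 to 1 (Mad2l1, 0.63, adjusted p = 0.0353), and the share of all genes higher in VB went from 3.55% to 0.726%. With the gap in the fit 36 of the 47 genes lay above 0 and their median was 0.20. Leaving out VB array 39_3 or 39_4 left 2 genes called, Mad2l1 and Nusap1. Leaving out dLGN array 39_3 left 5, and leaving out dLGN array 35_3 or 39_2 left 6. Without VB array 35_3, 6 of the 47 were called, but Aurkb, Cdk1, Cenpa, Pbk, Racgap1 and Rrm1 of the 11 were not. Markers of astrocytes and of oligodendrocyte precursors differed as well. The median of the 8 astrocyte markers, relative to each gene's mean, was -0.27 to -0.12 over the VB arrays and -1.02 to -0.45 over the dLGN arrays, and that of the 7 measured oligodendrocyte precursor markers was -0.15 to -0.10 in VB and -0.78 to -0.25 in dLGN. Of the astrocyte markers 3 were higher in VB and 1 lower at the adjusted threshold, and of the precursor markers 2 were higher. Markers of neurons differed too, with a median of 0.19 to 0.22 over the VB arrays and -0.56 to 0.07 over the dLGN arrays. Of these 8 markers 7 lay above 0 and 1 was higher in VB at the adjusted threshold, the tubulin Tubb3 (0.51 ± 0.16, adjusted p = 0.0498), beside Snap25 (1.22 ± 0.43) and Stmn2 (1.18 ± 0.42), which did not pass. Other lists overlapped between the nuclei. Radial glia and progenitor markers had medians of -0.06 to 0.01 in VB and -0.1 to 0.33 in dLGN. Microglia markers had -0.23 to -0.04 and -0.26 to 0.24, and endothelium markers -0.03 to 0.18 and -0.21 to -0.02. Relay neuron markers had 0.12 to 0.21 and 0.11 to 0.42. The part of RNA length and of cell content in the difference between nuclei was not tested beyond these values.

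**Figure D3:**
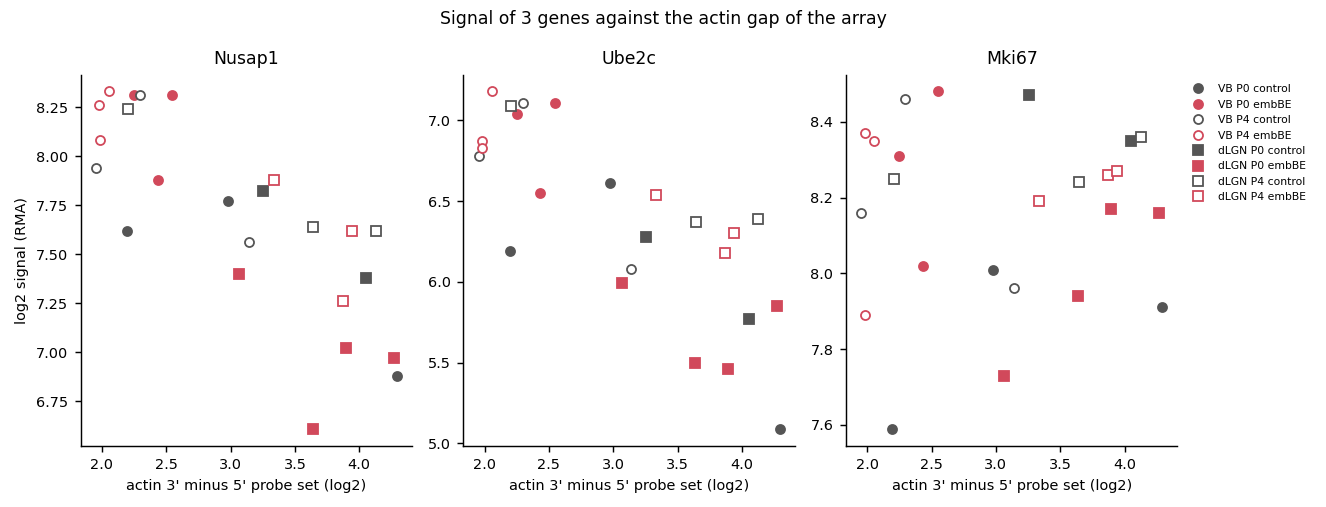
Log2 signal of Nusap1, Ube2c and Mki67 (vertical) against the actin gap (horizontal, log2 signal of the 3' minus the 5' probe set) on the 24 arrays, by nucleus and treatment. Arrays with a gap under 3 (10 of VB and 1 of dLGN) have the higher median of Nusap1 and of Ube2c, with overlapping ranges. Mki67 has nearly the same median on both sides.

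Over all 24 arrays the same measure split the genes. On the 11 arrays with an actin gap under 3, 28 of the 47 genes had a higher median than on the other 13 arrays and 19 a lower one. Pcna was higher by 1.24, Ccne2 by 0.91, Nusap1 by 0.84, Ube2c by 0.79, Racgap1 by 0.77, Cenpa and Cdk1 by 0.62, Aurkb by 0.61 and Ccnb2 by 0.60. Mki67 differed by 0.05 only. Of these 11 arrays 10 were of VB, and 11 of the other 13 were of dLGN, so across the 24 arrays the nucleus and the gap largely cannot be told apart.

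A gene's other probe sets did not always follow the chosen one. Of 67 other probe sets, of 34 genes, 37 lay above 0 and 29 below 0 in the embBE difference between nuclei at P0, with a median of 0.17. The 16 chosen probe sets whose names end in _s_at or _x_at, which can pick up more than 1 transcript, had a median of 0.06, and the 31 others 0.29. For some replication genes the chosen probe set was lower in VB and a dimmer one higher. Mcm6, another subunit of the replicative helicase and shown above with its E2F letters, differed by -0.16 on the chosen probe set and by 1.31 on a dimmer one. Mcm7 differed by -0.22 and 1.22, Mcm2 by -0.04 and 0.63, and Cdc20, the activator of the anaphase-promoting complex, by 0.16 and 0.88. Ccnd2 differed, in plain group means, by -0.42 on the chosen probe set and by 0.45, 0.59 and 0.87 on 3 of its 6 others. Against this, a dim second probe set of Nusap1 differed by -0.34, both other probe sets of Top2a by -0.36 and -0.27, and a second one of Racgap1 by 0.19 beside its 0.90. Taking the mean of all probe sets of a gene left 9 of the 47 genes called.

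Eye removal was set against the controls within each nucleus, at the threshold of the study's methods (a fold of at least 1.5 and an unadjusted p under 0.05). In VB at P0, 3 of the 47 genes were higher in embBE mice and none lower, where 0.555% of all genes were higher and 0.17% lower. No gene passed the adjusted threshold, on which the lowest adjusted p of the 47 was 0.678, and 16 had an unadjusted p under 0.05 (6.7% of all genes did). The values are given for controls 35_1, 35_2, 39_5 and then for embBE arrays in the order used above. Nusap1 read 6.88, 7.62 and 7.77 in the controls, and all 3 embBE arrays (7.88, 8.31 and 8.31) were above them. Ube2c read 5.09, 6.19 and 6.61 against 6.55, 7.04 and 7.11, and Cenpa 6.40, 7.12 and 7.96 against 7.76, 8.02 and 7.83, so that both overlapped. Control array 35_1, the one with the widest actin gap in VB, was the lowest of the 3 controls for each gene, and without it none of the 47 was called. Leaving out embBE array 39_3 or 39_4 left 1 gene called, and leaving out embBE array 35_3 or control 39_5 gave 6 and 7. None was called either with the actin gap in the fit. Markers of GABAergic neurons also moved with this contrast: all 8 lay below 0, and their median was -0.19 to 1.1 over the controls and -0.30 to -0.16 over the embBE arrays. The 1.1 was control array 39_5 alone, since 35_1 was at 0.02 and 35_2 at -0.19, within the embBE range. Their part in it was not tested.

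By role the VB medians at P0 were highest among mitotic genes on the chosen probe sets. Over the 47 genes 33 lay above 0, with a median of 0.22 against -0.03 over all genes. The 10 kinetochore, passenger complex and checkpoint genes all lay above 0, with a median of 0.39. The spindle genes had a median of 0.27, the cytokinesis genes 0.32 and the mitotic entry genes 0.22. Replication genes had a median of -0.04, with 8 of 11 below 0, and G1 cyclins one of -0.13. Other probe sets of these genes could point the opposite way, at 0.63 for Mcm6, 0.52 for Mcm7, 0.34 for Rrm2, 0.27 for Mcm2, 0.24 for Mcm5 and 0.60 for Ccnd2. The chosen probe sets ending in _s_at or _x_at had a median of 0.02 here, the other chosen ones 0.35, and the 67 probe sets not chosen 0.03. Mki67 and Top2a, which untangles DNA before chromosomes part, had no overlap between groups. Mki67 read 7.91, 7.59 and 8.01 in the controls and 8.02, 8.31 and 8.48 in embBE mice. Top2a read 7.51, 7.79 and 8.05 in the controls and 8.07, 8.36 and 8.35 in embBE mice. In both genes the lowest embBE array lay just above the highest control. Both other, dimmer probe sets of Top2a gave -0.25 here. Mcm5, a helicase subunit, was the 1 gene whose embBE arrays (9.83, 9.76 and 9.73) all lay below the controls (10.39, 9.95 and 10.17). In 8 genes the embBE arrays all lay above the controls, as in 4.47% of all genes, and 7.56% of all genes were like Mcm5.

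In dLGN at P0 the differences pointed down. A single gene of the 47, Nusap1, was lower in embBE mice at the methods' threshold and none was higher, where 0.357% of all genes were lower and 0.0879% higher. It read 7.82 and 7.38 in controls 35_1 and 39_5 against 7.02, 6.97, 6.61 and 7.40 in embBE mice, which overlapped narrowly. The fitted difference was -0.60 ± 0.25 (n = 4 and 2, unadjusted p = 0.0349, limma adjusted p = 0.851). It was past the threshold in 2 of the 6 cases in which an array was left out, and 4 of the 47 genes were called without embBE array 39_4 or control 39_5. Of the 47 genes 35 lay below 0, with a median of -0.20 against 0.03 over all genes. Cdk1, Mki67, Cenpa and Birc5, the survivin of the passenger complex, had every embBE array below both controls, which 4.08% of all genes had. Mki67 read 8.47 and 8.35 in the controls and 8.17, 8.16, 7.94 and 7.73 in embBE mice. Cdk1 read 7.31 and 6.97 in the controls, just above the highest embBE array at 6.91. Astrocyte markers moved with this contrast: 7 of the 8 lay below 0, and their median was -0.21 to -0.19 over the controls and -1.02 to -0.45 over the embBE arrays. Relay neuron markers lay the other way, 8 of 10 above 0, with a median of -0.04 to 0.04 over the controls and 0.11 to 0.42 over the embBE arrays. Of these Prox1 was past the methods' threshold (0.67 ± 0.26). GABAergic markers had a median of 0.74 on control array 39_5 and of -0.23 to 0.01 on the other 5 arrays. The part of these markers in the contrast was not tested.

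Because the difference had opposite signs in VB and dLGN, the change of the effect between nuclei was tested over all 24 arrays. At P0 the embBE effect was higher in VB than in dLGN for 14 of the 47 genes at the methods' threshold and lower for none, where 1.52% of all genes were higher and 1.02% lower. None passed the adjusted threshold (the lowest limma adjusted p was 0.551), and 18 had an unadjusted p under 0.05 (5.86% of all genes did). The median over the 47 genes was 0.36, against -0.07 over all genes, and 37 lay above 0. Nusap1 had the widest change (1.34 ± 0.37), from 0.74 in VB and -0.60 in dLGN. Mki67 (0.85 ± 0.23) came from 0.44 and -0.41. Cenpa changed by 1.26, Ube2c by 1.26, Cdk1 by 1.07 and Ccnb2 by 0.98. The same arrays enter this test and the comparisons within and between nuclei given above, so these are not separate evidence.

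**Figure D4:**
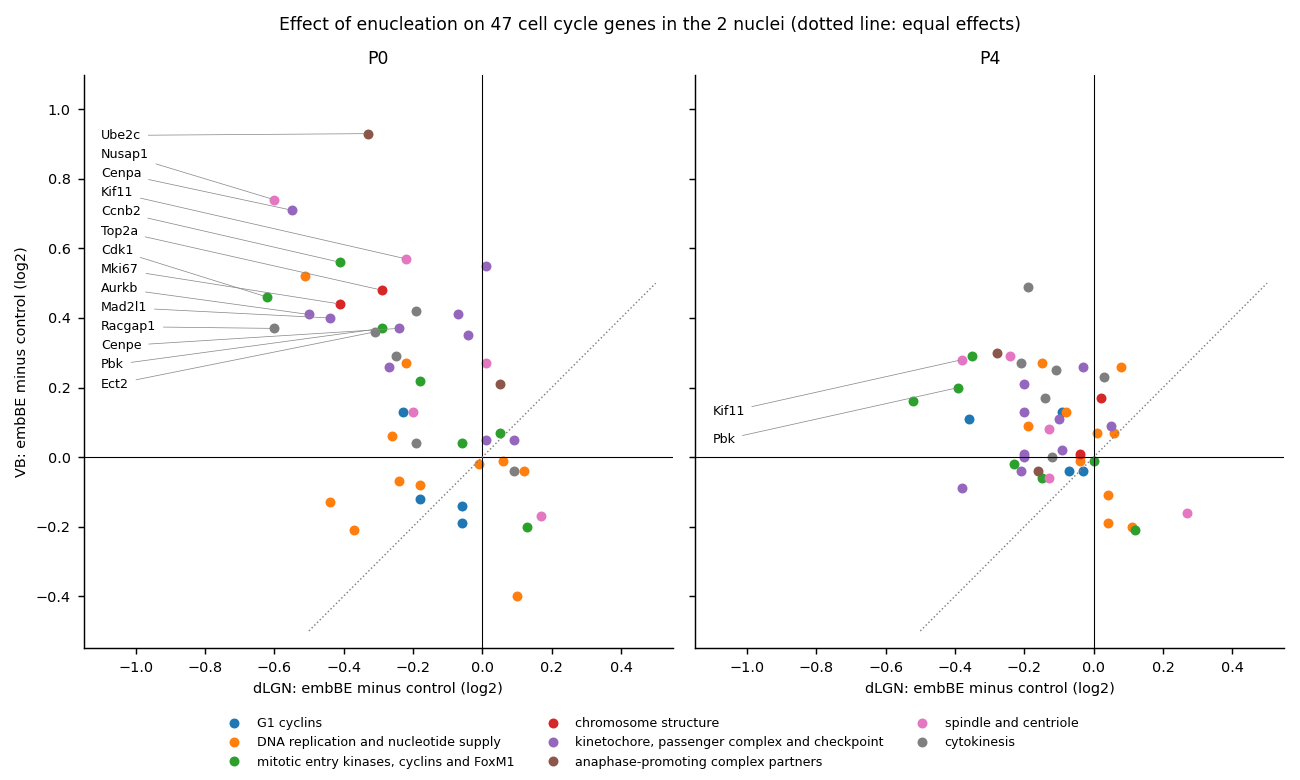
Log2 difference between embBE and control mice in dLGN (horizontal) and in VB (vertical) for the 47 genes at P0 and P4. The dotted line marks equal effects, and labelled genes passed the methods' threshold for a difference between nuclei. At P0 the 14 labelled genes lie above the line, and at P4 the labelled genes are Kif11 and Pbk.

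The 14 genes fell in the mitotic roles. They were 3 of the 7 mitotic entry genes (Cdk1, Ccnb2, Pbk), both chromosome structure genes (Mki67, Top2a), 4 of the 10 kinetochore genes (Cenpa, Mad2l1, Aurkb, Cenpe), Ube2c, 2 of the 5 spindle genes (Nusap1 and Kif11, the motor that pushes spindle poles apart) and 2 of the 6 cytokinesis genes (Racgap1, Ect2). None of the 11 replication genes and none of the 4 G1 cyclins was among them on the chosen probe sets. On other probe sets the same change was 1.43, 1.0 and 0.87 for Ccnd2, 1.31 for Mcm6, 1.07 for Mcm7, 0.83 for Mcm2 and 0.63 for Rrm2, so the split by role rests on the choice of probe set. Some called genes also had dimmer probe sets of the opposite sign. These gave -0.48 and -0.4 for Top2a, -0.33 for Kif11 (beside 0.63 on another), -0.27 for Nusap1 and -0.13 for Racgap1 (beside 0.27). Those of Aurkb and Cenpe kept the sign, at 0.51 and 1.02. Of the 67 other probe sets 38 lay above 0 and 29 below, with a median of 0.14. The chosen probe sets ending in _s_at or _x_at had a median of 0.16 in this test and the other chosen ones 0.54. Leaving out 1 array in turn gave 7 to 17 genes, with 7 when the dLGN control array 35_1 was left out, and the actin gap in the fit gave 12. The SD of each array in the fit gave 7, and leaving out the 5 arrays of lowest SD gave 5. Cenpe, the motor that moves chromosomes to the spindle equator, changed by 0.61 ± 0.25, Kif11 by 0.79 ± 0.30 and Top2a by 0.77 ± 0.26.

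**Figure D5:**
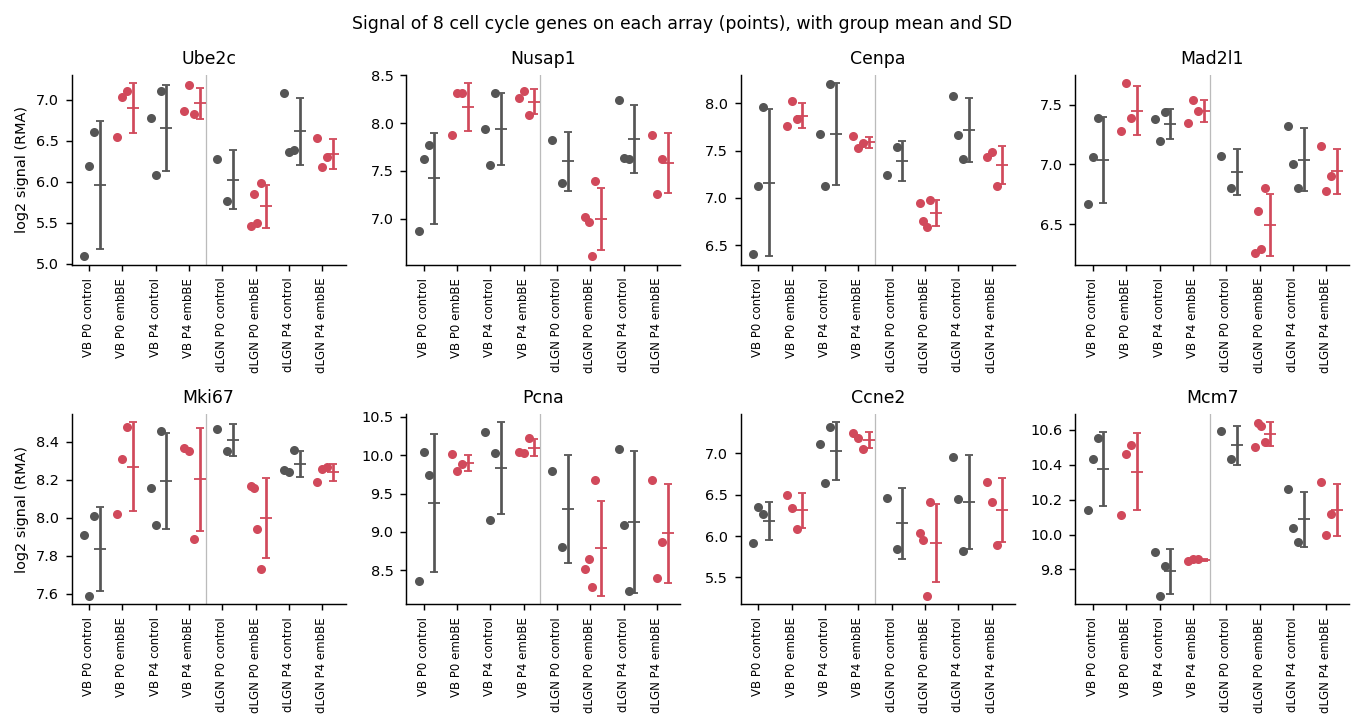
Log2 signal (vertical) of Ube2c, Nusap1, Cenpa, Mad2l1, Mki67, Pcna, Ccne2 and Mcm7 on each array, in the 8 groups of nucleus, day and treatment; each point is an array, and bars give the mean and SD. Nusap1 and Mad2l1 of embBE mice at P0 do not overlap between nuclei, Ccne2 is higher at P4 than at P0 in VB, and Mcm7 is lower.

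At P4 less was seen. In VB none of the 47 genes was called in embBE mice against controls in either direction (0.143% of all genes were higher and 0.0165% lower), and none had an unadjusted p under 0.05 (3.98% of all genes did). Their median was 0.08 and 30 lay above 0. In dLGN none was called either (0.066% of all genes were higher and 0.132% lower), and 36 of the 47 lay below 0 with a median of -0.12. Pbk (-0.39 ± 0.16), Kif11 (-0.38 ± 0.15) and Ccnd2 (-0.36 ± 0.16) had an unadjusted p under 0.05 there, as 1.3% of all genes did. Pbk read 10.15, 9.73 and 9.86 in the dLGN controls and 9.66, 9.57 and 9.35 in embBE mice, all below the controls. The embBE effect differed between nuclei at the methods' threshold for Kif11 (0.65 ± 0.29) and Pbk (0.59 ± 0.24), where 0.363% of all genes had a higher and 0.115% a lower effect in VB, with a lowest adjusted p of 0.977.

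Between the nuclei at P4 no member passed the adjusted threshold in either treatment. In controls 1.73% of all genes were higher in VB and 1.49% lower, and in embBE mice 4.33% and 4.11%. At the methods' threshold 5 of the 47 genes were higher in the VB of embBE mice and none lower, where 8.88% of all genes were higher and 2.58% lower, a share near that of the 47. With the actin gap in the fit none of the 5 was called, and with the SD of each array none was. The 5 were Pcna (1.12 ± 0.47), Racgap1 (0.85 ± 0.29), Ccne2, an E-type cyclin that starts S phase (0.84 ± 0.28), Kif20a, a kinesin of the late spindle (0.68 ± 0.23), and Nusap1 (0.64 ± 0.25). Pcna read 10.04, 10.03 and 10.23 in VB and 9.68, 8.4 and 8.87 in dLGN. Ccne2 read 7.24, 7.18 and 7.05 in VB and 6.65, 6.41 and 5.89 in dLGN. Both genes were evenly high in VB and scattered in dLGN, and the actin gaps of the same arrays did not overlap.

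Age moved few of the 47 genes, and in VB about as many as the share of all genes would give. From P0 to P4 in the VB of controls, Ccne2 rose and Mcm7 fell at an adjusted p under 0.05, where 2.33% of all genes rose and 1.45% fell. Ccne2 read 5.92, 6.35 and 6.27 at P0 and 7.11, 6.64 and 7.32 at P4, a rise of 0.85 ± 0.17 (limma adjusted p = 0.0207). Mcm7 read 10.14, 10.43 and 10.55 at P0 and 9.90, 9.65 and 9.82 at P4, a difference of -0.58 ± 0.14 (adjusted p = 0.0345). The groups did not overlap in either gene. The other 3 probe sets of Mcm7 gave -0.10, -0.30 and -0.46. In embBE mice Ccne2 rose by the same 0.85 ± 0.17 (adjusted p = 0.0207), from 6.5, 6.34 and 6.09 to 7.24, 7.18 and 7.05, where 2.69% of all genes rose and 0.731% fell. Mcm7 differed by -0.50 ± 0.14 (adjusted p = 0.0656). With 1 array left out in turn, Ccne2 stayed past the threshold in 3 of 6 cases in controls and 1 of 6 in embBE mice, and Mcm7 in 2 of 6 in controls.

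In dLGN no gene of the 47 passed the adjusted threshold with age (0.253% of all genes rose and 0.308% fell in controls, 0.632% and 0.39% in embBE mice), and 4 and 13 of the 47 had an unadjusted p under 0.05 (9.63% and 11.7% of all genes did). Mcm7 differed by -0.43 ± 0.14 in controls and -0.43 ± 0.12 in embBE mice, without overlap in either. In embBE mice Pbk (0.60 ± 0.15), Cdk1 (0.65 ± 0.26), Ccnb2 (0.64 ± 0.22), Ube2c (0.64 ± 0.21) and Nusap1 (0.59 ± 0.22) were higher at P4 at the methods' threshold, where 2.23% of all genes were. In controls Pbk (0.70 ± 0.18) and Ube2c (0.59 ± 0.25) were, where 1.49% of all genes were. Whether age acted differently in embBE mice was tested within each nucleus, and no gene of the 47 passed the adjusted or the methods' threshold. At the latter the change with age was higher in embBE mice for 0.264% of all genes and lower for 0.0824% in VB, and for 0.192% and 0.225% in dLGN. Cenpf, a kinetochore protein, had an unadjusted p under 0.05, in VB (-0.53). Among 47 genes tested at this level chance alone gives such values, so it is not read as a change. Astrocyte markers rose over the same interval. Their median went from -0.51 to -0.04 over the VB controls at P0 to 0.50 to 0.82 at P4, with 4 of 8 past the adjusted threshold, and its part in the age differences was not tested.

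The wider pathway was read from lists of genes outside the 47, in fits without the actin gap only. In embBE mice at P0, 6 of 53 other mitosis genes were higher in VB than in dLGN and 1 was lower at the adjusted threshold, with a median of 0.16, where 3.55% of all genes were higher and 3.93% lower. Zwilch, which brings checkpoint proteins to the kinetochore, was higher by 0.91 ± 0.22 and Smc4, a condensin subunit, by 0.83 ± 0.24. Cdca7, a chromatin factor, was lower by 1.84 on the log2 scale (-1.84 ± 0.28, adjusted p = 0.000463), and it was also lower in VB in P0 controls (-2.07 ± 0.34), P4 controls (-2.22 ± 0.30) and P4 embBE mice (-1.64 ± 0.30). Of 33 other replication genes 2 were higher and 2 lower, among them Dut, which removes dUTP (1.14 ± 0.27), and Tk1, the thymidine kinase of dividing cells (0.72 ± 0.14). Of 15 anaphase-promoting complex genes Anapc16 was higher (0.91 ± 0.24), of 7 CDK inhibitors Cdkn2d was higher (0.87 ± 0.21), of 8 interphase kinases and other D and G cyclins Ccng1 was higher (0.54 ± 0.10), and none of 19 genes of the retinoblastoma, E2F and DREAM list passed.

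With age, 1 gene of these lists passed in all 4 groups. Ccng1, a cyclin induced by p53, was higher at P4 than at P0 by 0.65 ± 0.11 in VB controls, 0.70 ± 0.11 in VB embBE mice, 0.76 ± 0.13 in dLGN controls and 0.88 ± 0.11 in dLGN embBE mice (limma adjusted p = 0.00950, 0.00658, 0.0339 and 0.00417). Lig1, the ligase that joins replicated strands, was lower at P4 in VB, by -0.76 ± 0.12 in controls and -0.61 ± 0.12 in embBE mice (adjusted p = 0.00533 and 0.0154). Pttg1, the securin that guards sister chromatids, was higher at P4 in VB controls (0.46 ± 0.11, adjusted p = 0.0384). Of the 53 other mitosis genes no other passed with age in any of the 4 groups.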

How the data were processed

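Gene expression was measured on 24 Affymetrix mouse genome arrays, 1 per sample, from RNA amplified in 2 rounds. The authors deposited log2 signals of 45101 probe sets after RMA, whose version is not given in the sources used here, and these were used as deposited. They hold no detection calls, and the number of arrays limits the precision. Probe sets were named from the platform annotation, updated by Entrez number. The 34945 with 1 symbol were kept (932 had several, 9211 none listed), and the brightest probe set over the 24 arrays stood for each of 18193 genes. No filter on dim signals was applied.

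Linear models came from limma 3.58.1 (R 4.3.3), moderated by eBayes, with Benjamini-Hochberg adjustment over all genes. Comparisons within a nucleus used its 12 arrays, and those between nuclei used all 24, each pair of numbers in the labels forming a random block. Eye removal was judged by the methods' threshold (fold of at least 1.5, unadjusted p under 0.05) and the other comparisons by an adjusted p under 0.05. Promoters came from RefSeq, build GRCm38.p6. The procedure was tested on simulated data. Plots were made in matplotlib 3.10.9 (Python 3.11.15).

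The 47 genes, their roles and the other lists were chosen with earlier results of these data known. All 47 could be named, and from each pathway list up to 4 called genes with the largest difference. Marker genes named were the first 3 of their list or called, except Stmn2, which was named after its values were seen. Alternatives were a mean of all probe sets, a filter on dim ones, cyclic loess, median centring, each array left out, replicate blocks, eBayes with trend and robust options, other sets of arrays in the fit and the methods' t-test. After the data were seen, the SD or actin gap of each array as a covariate, a fit without the 5 arrays of lowest SD, and a random block for age were added.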

Additional observations from a re-analysis of the deposited data

Results flagged for a closer look

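At P0 the embBE effect differed between VB and dLGN, by a test of that difference over 24 arrays, for 14 of the 47 genes at the methods' threshold (fold of at least 1.5, unadjusted p under 0.05). All 14 had the higher effect in VB, and no gene passed after adjustment (lowest limma adjusted p = 0.551). The differences of effects (log2) were 1.34 for Nusap1, 1.26 for Cenpa, 1.26 for Ube2c, 1.07 for Cdk1, 0.98 for Ccnb2, 0.96 for Racgap1 and 0.91 for Aurkb. They were 0.85 for Mki67, 0.85 for Mad2l1, 0.79 for Kif11, 0.77 for Top2a, 0.66 for Pbk, 0.66 for Ect2 and 0.61 for Cenpe. At P4 the same test gave Kif11 (0.65) and Pbk (0.59), with a lowest adjusted p of 0.977.

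In dLGN of embBE mice at P0, the only group of 4 arrays, 1 of the 47 genes had an array far from the others. Ttk, a spindle checkpoint kinase, read 6.71 on array 39_2 and at most 6.45 on the other 3, a gap of 0.881 of the group's range against a critical value of 0.829. Chance gives such a gap in about 1 of 20 groups.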

How the results depend on the processing

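Counts below are of the 47 genes, called as in the report, and no called gene changed sign under any alternative listed here. Of the counts recomputed under an alternative 198 stayed within 1.5 times and 90 did not, and of the medians 196 moved by less than the spread between arrays and 8 by more. Of the calls of single genes 177 held and 124 were lost. For the counts and medians that moved, the cause was not tested.

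Between the nuclei of embBE mice at P0 (11 called, all higher in VB), the actin gap in the fit gave 1, and leaving out the 5 arrays of lowest SD gave 7. Cyclic loess gave 12 higher and 2 lower, centring each array on its median gave 8 and 0, and the SD of each array in the fit gave 11 and 1. In P0 controls (0 called) the SD of each array in the fit gave 3, and the median went from -0.09 to 0.06 without the 5 arrays. At P4 in controls (0 called) the SD gave 4 and the actin gap 1. At P4 in embBE mice (0 called) the mean of probe sets gave 2, cyclic loess 1, the SD 1, the actin gap 1 (each lower in VB) and leaving out the 5 arrays 11, of which 7 higher and 4 lower. The median there (0.15) became 0.08 with cyclic loess, 0.27 with centring, 0.06 with the SD and 0.03 with the actin gap. For the difference of the embBE effect between nuclei at P0 (14 at the methods' threshold), the SD gave 7 and leaving out the 5 arrays 5. At P4 (2) cyclic loess gave 1, the SD 0, the actin gap 0 and leaving out the 5 arrays 10. Centring moved the split over all genes from 277 higher and 186 lower to 323 and 67 at P0, and from 66 and 21 to 82 and 8 at P4. Between nuclei in embBE mice at P4 it moved that split from 1615 and 469 to 2099 and 248, at the methods' threshold. At the adjusted threshold it moved from 787 and 747 to 899 and 448 there, and from 115 and 71 to 99 and 101 with age in dLGN embBE mice. At the methods' threshold the split of eye removal in dLGN at P4 went from 12 and 24 to 7 and 26 with centring, and in VB at P0 from 101 and 31 to 80 and 47 with cyclic loess.

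In VB at P0 (3 called in embBE mice against controls), the mean of probe sets gave 1, centring 5, the SD 1, the actin gap 0, leaving out the 5 arrays 0 and the methods' t-test 0. In dLGN at P0 (1) the mean of probe sets gave 0, cyclic loess 2, the SD 0, leaving out the 5 arrays 0 and the t-test 0. In dLGN at P4 (0) leaving out the 5 arrays gave 1. With age in VB controls (2), eBayes with trend and robust options gave 1, the mean of probe sets 1, the SD 6, leaving out the 5 arrays 1, only the 2 groups compared 0, the t-test 0 and all 24 arrays 1. In VB embBE mice (1), those options gave 2, the mean of probe sets 2, cyclic loess 2, the SD 3, the actin gap 3, leaving out the 5 arrays 3, only the 2 groups 4 and the t-test 0. In dLGN (0 in both), the SD gave 4 in controls, and in embBE mice the SD gave 12, the actin gap 4 and all 24 arrays 1.

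With each array left out in turn, the count between nuclei was 2 to 15 in embBE mice at P0, and 0 to 1 in either treatment at P4. Eye removal gave 0 to 7 in VB at P0, 0 to 1 in VB at P4, 0 to 4 in dLGN at P0 and 0 to 1 in dLGN at P4. Age gave 0 to 5 in VB controls and 0 to 2 in VB embBE mice. In VB controls it gave 0 without P4 array 24_2 or 40_1 and 5 without 36_3, and in VB embBE mice 0 without any array but P0 array 35_3, which gave 2. The difference of the effect between nuclei gave 7 to 17 at P0 and 0 to 5 at P4. The median with eye removal in dLGN at P0 was -0.28 to -0.07, the latter without control 35_1. The median with age in dLGN controls was 0.01 to 0.22, and it was 0.01 without P0 array 39_5.

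The numbers in the labels were not shown to pair the arrays. Deviations from the group means correlated at -0.5 to 0.48 over 8 pairs of embBE and control arrays that share a first number at P0, and at -0.2 to 0.76 over 6 at P4. Between VB and dLGN arrays of the same pair of numbers the range was -0.46 to 0.13 over 5 pairs at P0 and -0.55 to 0.72 over 6 at P4. With the first number as a replicate block, 0 genes were called in VB at P0 and 0 in dLGN at P0. As a random replicate block for age it gave 4 in VB controls and 2 in VB embBE mice. A fixed block for age could not be fitted, since each first number occurs on 1 day. Without the random block between nuclei, the counts of 11 and 14 at P0 were the same.

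The number of arrays limits the precision, most of all in the dLGN controls at P0, of which there were 2. The deposited values hold no detection calls, and 7 of the 47 genes were read by a dim probe set. The actin gap did not overlap between the nuclei of embBE mice, so a fit with both rests on the arrays of the other groups and on the spread within groups.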
